A study of Mus musculus with 13 samples.

Results

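The genes described here build, modify, fold, export and trim procollagen. They are 33 of the 25655 genes in the tables, and they were chosen by name for their known roles. RNA was sequenced from 13 untreated primary cultures of fibroblasts from the dermis of newborn mice, to ask whether cells homozygous for the G234D allele of Fbn1 differ in themselves. Fbn1 encodes fibrillin-1, the glycoprotein of dermal microfibrils. The wild-type (WT) cultures are W1 to W4 in set 1 and W5 and W6 in set 2, 6 in all. The Fbn1 G234D/G234D cultures, called G234D here, are M1 to M4 in set 1 and M5 to M7 in set 2, 7 in all. The design text counts as many mice as cultures, and strain, sex, passage and exact age were not given in the sources used here.

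Collagen chains enter the endoplasmic reticulum, where hydroxylases that need iron, oxygen and ascorbate modify prolines and lysines. Hydroxyproline stabilises the triple helix, hydroxylysine carries sugars and later cross-links, and chaperones and peptidyl-prolyl isomerases assist folding. Long procollagen then leaves in enlarged coat protein complex II (COPII) carriers, and proteases remove its N- and C-propeptides so that fibrils can form. In human, defects in many of these genes cause brittle bone disease or Ehlers-Danlos syndromes.

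Values were TPM, transcript levels corrected for transcript length and scaled to a fixed total, so levels of different genes can be set side by side. Between 11741 and 12042 genes reached 1 TPM in a culture, and read depth is unknown. All 10 fibroblast markers reached 1 TPM, with a summed level of 17734 to 26720.0 TPM. Summed keratinocyte markers reached at most 8.63 TPM and endothelial markers at most 4.48 TPM. M1 and M2 stood apart from the other cultures of set 1. Their skeletal muscle markers summed to 492 and 377 TPM, against 74.7 to 186 TPM in the other 6. Their Schwann cell and melanocyte markers summed to 137 and 138 TPM, against 21.1 to 46.1 TPM, and macrophage markers to 60.6 and 86.6 TPM, against 15.7 to 36.7 TPM. In set 2 the same 3 sums were 111 to 171, 20.8 to 28.7 and 42.0 to 72.0 TPM. In RNA from whole cultures, fewer cells of a type and less RNA per cell cannot be told apart. Fbn1 stood at 467, 507, 543 and 446 TPM in W1 to W4 and 563, 522, 599.7 and 484 TPM in M1 to M4, and the genotypes overlapped. In set 2 it stood at 411 and 399.7 TPM in W5 and W6 and at 433, 433 and 489 TPM in M5 to M7, all above the WT cultures. The genotype difference of Fbn1 was not called over both sets, at 0.15 (SE 0.058, adjusted p = 0.742). A point mutation need not change the transcript level, so these values do not check the labels.

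The procollagen genes ranged in level from very abundant transcripts to almost none. Sparc, a secreted collagen-binding glycoprotein, was the highest, with a mean of 6449.8 TPM over 13 cultures and a range of 5626 to 6937 TPM. Serpinh1, the collagen-specific chaperone HSP47, followed at 3720.4 TPM (3217 to 4155), and P4hb, the beta subunit of prolyl 4-hydroxylase and a protein disulfide isomerase, at 1491 TPM (1293 to 1663). These ranges did not meet. Ppib (888 TPM, 845 to 960.2) and Pcolce (848 TPM, 782 to 988) came next and overlapped each other, and Fkbp10 stood below both at 517 TPM (467 to 568). A broad middle of 16 genes, from Bmp1 at 316 TPM to Adamts2 at 92.1 TPM, had neighbours whose ranges overlapped. Plod2, Fkbp14, Mia2, Tll1, Klhl12, Pcolce2, Adamts14 and P3h2 had means from 55.5 down to 4.76 TPM. Adamts3 (0.199 to 1.44 TPM), Colgalt2 (0 to 0.211 TPM) and Tll2 (0 to 0.0767 TPM) were too low to test, which left 30 of 33.

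**Figure D1:**
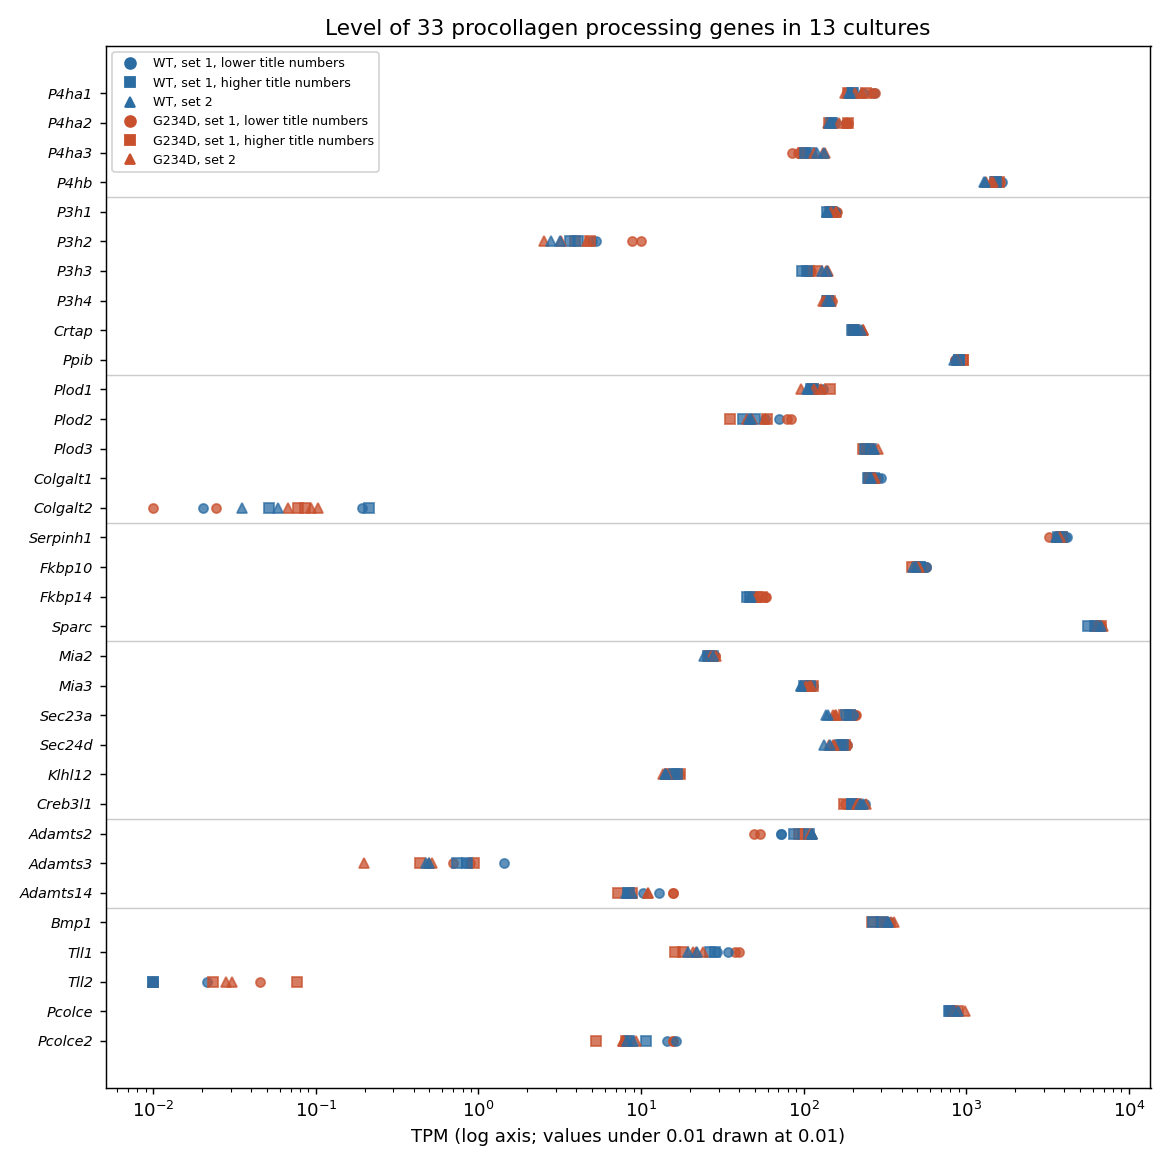
Level of the 33 genes in the 13 cultures, in TPM on a log axis, 1 point per culture, with genes grouped by role. Sparc and Serpinh1 lie above the other genes in every culture, while P3h2 and Pcolce2 spread most among the genes that could be tested.

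The genes differed in how steady they were. P3h4 and Ppib varied least, with a highest value 1.14 times the lowest in each. P3h2 varied most among tested genes at 3.95 times, then Pcolce2 at 3.10, Tll1 at 2.47, Plod2 at 2.40, Adamts2 at 2.28 and Adamts14 at 2.19 times.

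No gene of procollagen processing was called different between G234D and WT cultures. Differences are G234D minus WT on the log2(TPM + 1) scale, tested by limma with Benjamini-Hochberg adjustment over all genes, and a gene is called at an adjusted p under 0.05. Over both sets 0 of 30 genes were called, against 0% of 11942 genes. There were 19 positive and 11 negative values with a median of 0.04, beside 0.01 for all genes, and 1 of 30 genes was at an unadjusted p under 0.05, against 6.44% of all genes. The values ran from −0.16 for Pcolce2 to 0.33 for P3h2. For 24 of the 30 genes the 95% interval lay within 1.25-fold in either direction, and for 28 within 1.5-fold. The 6 wider intervals belonged to P3h2, Plod2, Adamts2, Adamts14, Tll1 and Pcolce2, the 6 most variable genes. Within set 1, 0 of 30 were called (0% of 11905 genes) and 2 were at an unadjusted p under 0.05 (6.06% of genes). Within set 2, 0 of 30 were called (0.00829% of 12060 genes), and 3 were at an unadjusted p under 0.05 (6.48% of genes), with 25 positive and 5 negative values, and a median of 0.08. Of all genes 62.4% had positive values in set 2, with a median of 0.03. The test of the difference between the sets called 0 of 30 (0% of 11942 genes), with 1 of 30, Mia3, at an unadjusted p under 0.05 (5.79% of genes).

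In set 1 the G234D cultures all lay above the WT cultures for Fkbp14, 1 of 30 genes against 1.97% of all genes, and all below for P4ha3, 1 of 30 against 2.19%. In either direction all genes gave 4.16%. In set 2 they all lay above for P4hb, P3h1, Crtap, Fkbp14, Mia3, Sec23a and Adamts14, which is 7 of 30 against 16.6% of all genes, and all below for 0 of 30, against 6.95%. In either direction all genes gave 23.6%. Over both sets 10 of 10 tested muscle markers, 9 of 9 macrophage markers and 6 of 6 Schwann cell and melanocyte markers had values above 0. The same held for 1 of 10 fibroblast, 0 of 4 cartilage and bone, 1 of 2 keratinocyte and 2 of 2 endothelial markers. Of these markers limma called 0, against 0% of all genes, with 10 at an unadjusted p under 0.05, against 6.44% of all genes. Their part in the values above was not tested, and with M1 and M2 left out 0 of 30 procollagen genes were again called.

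**Figure D2:**
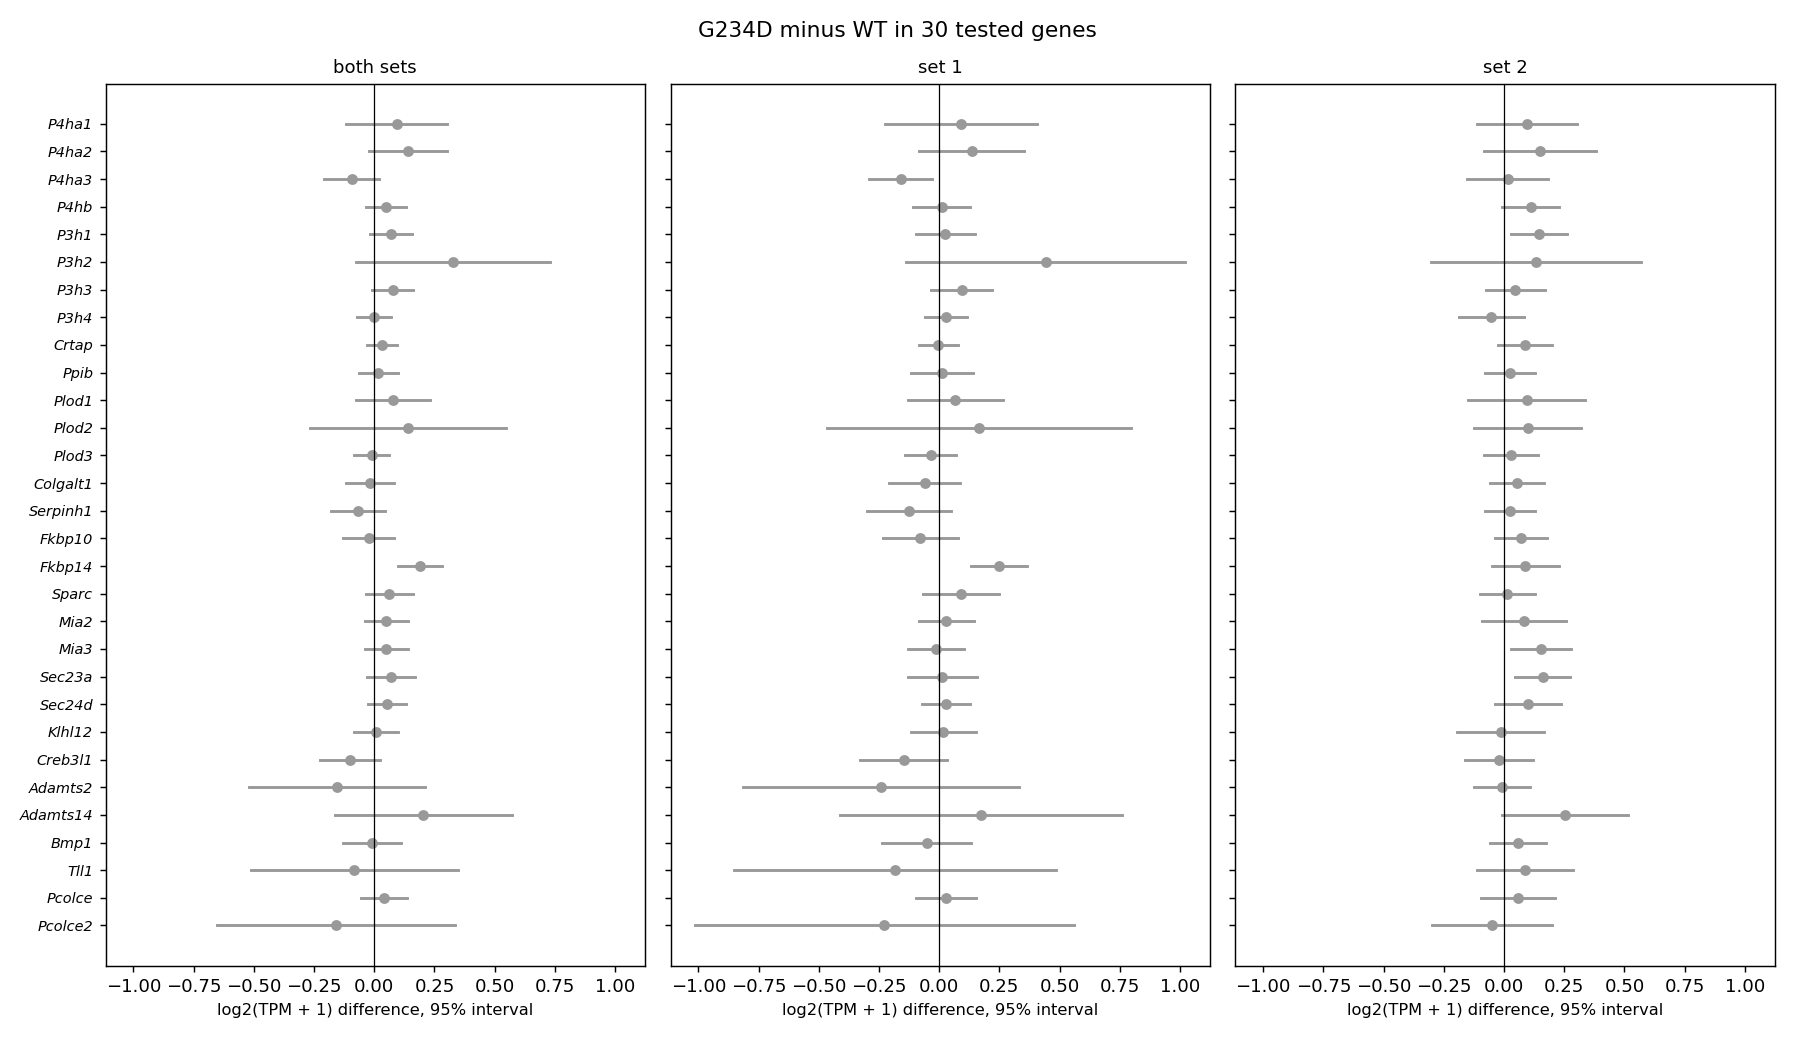
Differences between G234D and WT cultures for the 30 tested genes on the log2(TPM + 1) scale, for both sets together, set 1 and set 2; points are estimates and lines 95% intervals, on the same axis. No gene passed the adjusted threshold. The intervals clear of 0 are those of Fkbp14 over both sets, of Fkbp14 (above) and P4ha3 (below) in set 1, and of P3h1, Sec23a and Mia3 (above) in set 2.

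A division of set 1 that is not genotype showed more. The sample titles carry numbers, lower in W1, W2, M1 and M2 and higher in W3, W4, M3 and M4. The labels do not say what the numbers mark, and that of W1 lies far below the other 7. With genotype as a covariate, 6 of 30 procollagen genes were called between higher and lower numbers, against 7.14% of 11905 genes. Pcolce2, Adamts14, P3h2, P4ha1 and Fkbp10 fell in the higher numbers, 5 of 30 against 4.35% of genes, and Adamts2 rose, 1 of 30 against 2.79%. Of the 30 values 5 were positive and 25 negative, with a median of −0.06, beside 43.3% positive and a median of −0.02 for all genes. The higher numbers all lay below the lower numbers for 8 of 30 genes, against 9.68% of all genes, and all above for 2 of 30, Ppib and Adamts2, against 5.74%. In either direction all genes gave 15.4%.

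The calls rest on few cultures. Without M1 or without M2, 0 of 30 genes were called, and in the WT cultures alone 1, Pcolce2. Without W1, 3 were called. M1 and M2, both with lower numbers, are the cultures with high muscle, macrophage and Schwann cell marker sums. Between higher and lower numbers the values were negative for 7 of 7 tested macrophage markers (median −1.07, 6 at an unadjusted p under 0.05, 1 called). They were also negative for 10 of 10 muscle markers (median −0.97, 2 at that p, 0 called) and for 6 of 6 Schwann cell and melanocyte markers (median −0.70, 0 at that p, 0 called). Of all 11905 genes, 1994 had negative values at that p, and 4.35% were called and negative. Fibroblast markers had 8 positive and 2 negative values with a median of 0.12. Of these 10 markers 3 were called and rose, against 2.79% of all genes. The part of these cells in the 6 called genes was not tested.

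**Figure D3:**
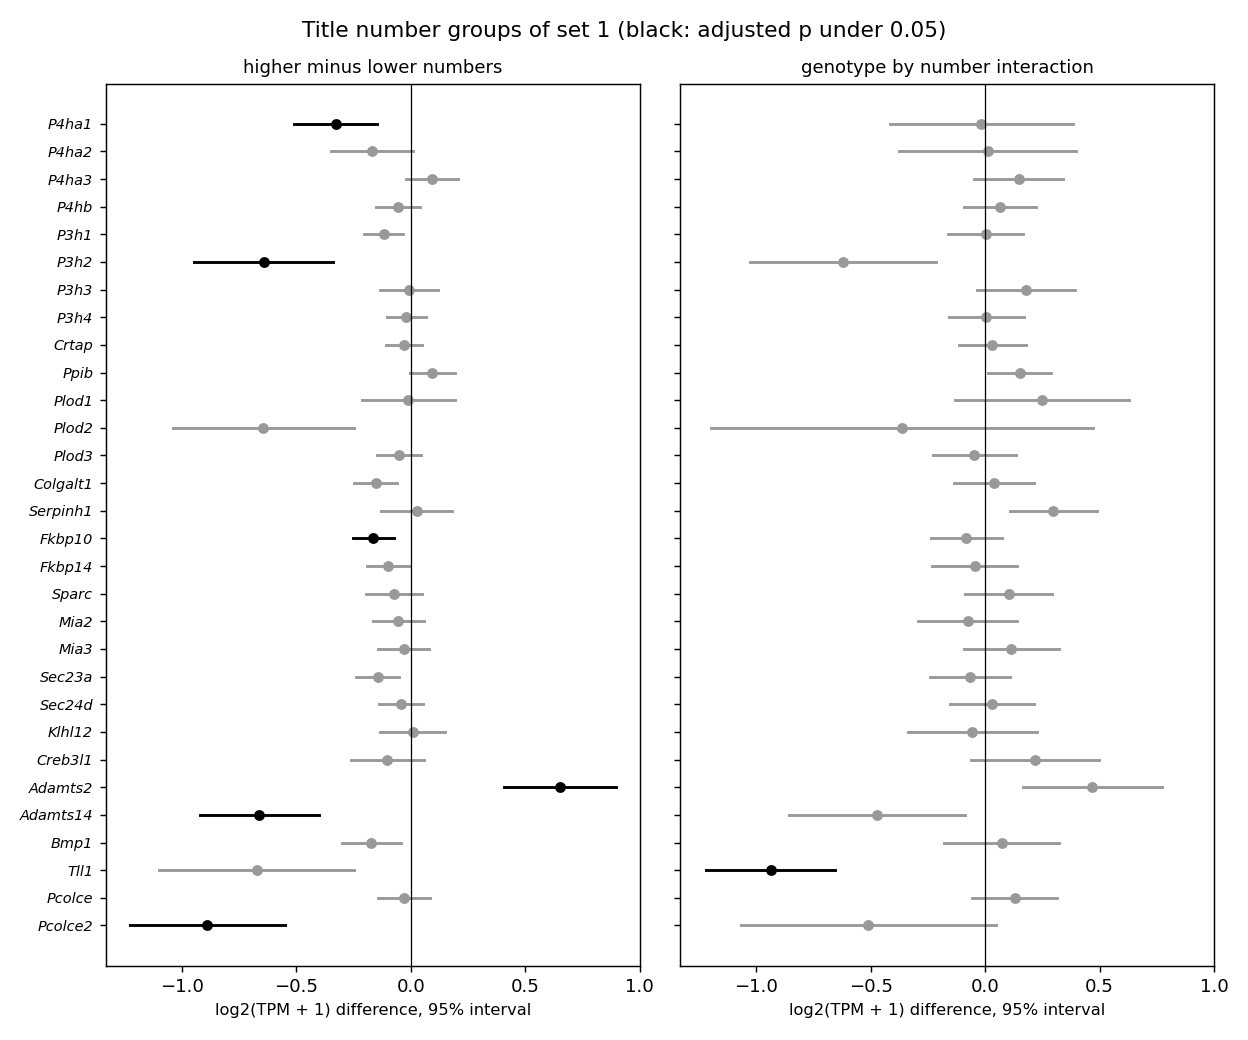
Left, higher minus lower title numbers in set 1; right, the genotype by number interaction, both on the log2(TPM + 1) scale with 95% intervals and with called genes in black. The 6 called genes on the left run from −0.89 for Pcolce2 to 0.65 for Adamts2, and Tll1 is the called gene on the right.

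The prolyl 4-hydroxylase is a tetramer of alpha subunits, which hold the active site, and beta subunits. P4hb stood at 1663, 1566, 1532 and 1504 TPM in W1 to W4, 1574, 1607, 1592 and 1534 TPM in M1 to M4, 1305 and 1293 TPM in W5 and W6, and 1414, 1331 and 1466 TPM in M5 to M7. In set 2 all 3 G234D cultures lay above both WT cultures, and all of set 2 lay below set 1 in this gene. P4ha1 measured 272, 230.5, 199 and 202 TPM in W1 to W4 and 264, 273, 242 and 187 TPM in M1 to M4, then 189 and 194 TPM in W5 and W6 and 206, 181 and 230.1 TPM in M5 to M7. The values of the 2 genotypes overlapped in both sets. P4ha1, the major alpha subunit of many cells, fell in the higher numbers by 0.33 on the log2 scale (SE 0.081, adjusted p = 0.0450). The values were −0.32 in WT and −0.34 in G234D cultures. The call was lost after quantile normalization (adjusted p = 0.0645), and also without W1, W3, W4, M1, M2 or M4, with adjusted p between 0.0706 and 0.153. The TPM of P4ha2 were 181, 155, 149.8 and 148 in W1 to W4, 181, 186, 187 and 144 in M1 to M4, 144 and 148 in W5 and W6, and 165, 141 and 184 in M5 to M7. M4 lay far below M1 to M3 and close to the WT cultures W3 and W4. The genotype difference of P4ha2 over both sets was 0.14 (SE 0.075, adjusted p = 0.855). P4ha3 stood at 105, 104, 110.3 and 102 TPM in W1 to W4, 85.0, 92.5, 101 and 98.4 TPM in M1 to M4, 133 and 120.0 TPM in W5 and W6, and 117, 135 and 132 TPM in M5 to M7. This further alpha subunit was lower in all G234D cultures of set 1 than in any WT culture, and overlapped in set 2. Its difference was −0.16 (SE 0.059, adjusted p = 0.732) in set 1 and 0.02 in set 2, and the test between sets called no procollagen gene. P4hb transcripts outnumbered the 3 alpha subunits together by 2.69 to 3.57 times in every culture.

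P4ha1, P4ha2 and Plod1 ranked the 5 cultures of set 2 in the same order, M7, M5, W6, W5 and M6 from high to low. P3h2 and Plod3 shared it, so that 5 of 30 genes, P4ha1 included, had the order, against 1.21% of 11942 genes. The order was read from P4ha1 in these same data, so this count tests nothing. In set 1 M4 was the lowest culture for P4ha1, P4ha2 and Plod2. It was the lowest for 10 of 30 procollagen genes, against 23.7% of all genes. P4ha1, P4ha2, Plod1 and Plod2 are known in mammalian cells as targets of the hypoxia-inducible factor. A list of 13 other known targets was therefore read after the values had been seen and supports nothing. Egln3, Bnip3, Vegfa and Pgk1, 4 of 13, had the set 2 order, and 8 of 13 were lowest in M4 within set 1. Others went another way. In set 2 Ndrg1 ran M6, W6, W5, M5 and M7 from high to low, and Ankrd37 was lowest in M7. In set 1 Ndrg1 was highest in W3 and M4. Pgk1, a glycolytic enzyme, stood at 887, 842, 779.5, 741 and 696 TPM in M7, M5, W6, W5 and M6. Between higher and lower numbers 1 of these 13 genes was called, against 7.14% of all genes. It was Ndrg1, which rose, against 2.79% of all genes called and higher. The shared ranking describes 5 cultures and was not tested.

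**Figure D4:**
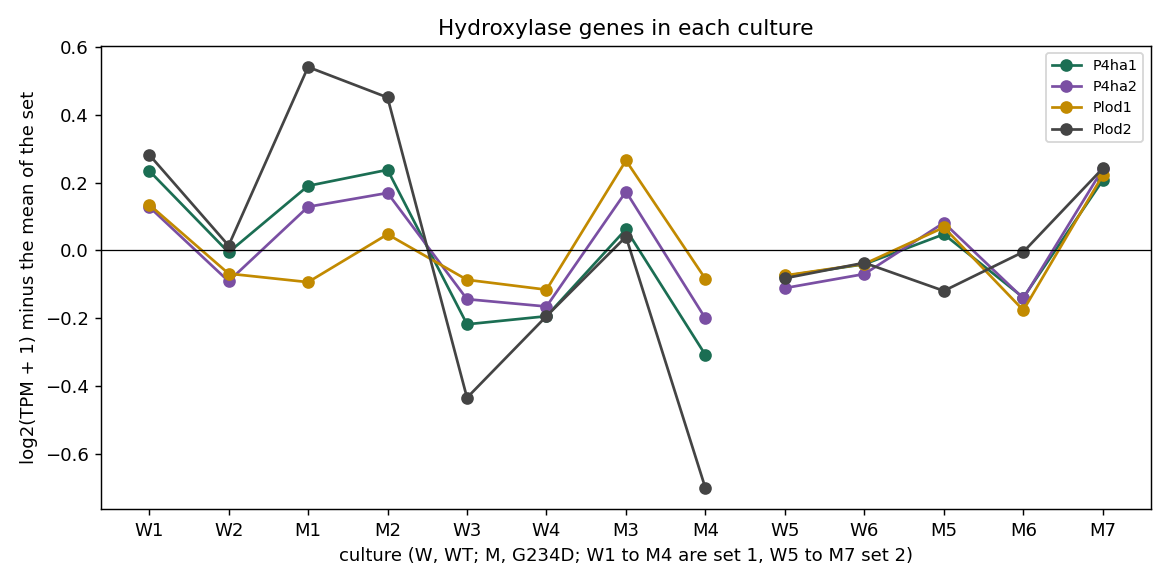
P4ha1, P4ha2, Plod1 and Plod2 in each culture, as log2(TPM + 1) minus the mean of the culture's set; lines join the points of a gene within a set for the eye only. In set 2 the first 3 genes run together, with M7 highest and M6 lowest, and in set 1 M4 is lowest for P4ha1, P4ha2 and Plod2.

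P4ha1, P4ha2 and Plod1 are 3 of the 5 procollagen genes with the shared set 2 order. The 250 bases before their RefSeq starts on GRCm38.p6 are shown, 5′ to 3′ on the strand of the gene. Of the rest with that order, P3h2 has no promoter entry and Plod3 is not printed. A link between these bases and the ranking was not tested. GENCODE M21 begins P4ha2 earlier, at 54100095, so by that annotation the window of P4ha2 lies inside the gene. Capitals mark ACGTG, a form of the core of the hypoxia-inducible factor site, on either strand (CACGT where it lies on the other strand). GCGTG, another form of that core, was not marked or counted, and each printed window holds it.
P4ha1, chr10:59323046-59323295, plus strand: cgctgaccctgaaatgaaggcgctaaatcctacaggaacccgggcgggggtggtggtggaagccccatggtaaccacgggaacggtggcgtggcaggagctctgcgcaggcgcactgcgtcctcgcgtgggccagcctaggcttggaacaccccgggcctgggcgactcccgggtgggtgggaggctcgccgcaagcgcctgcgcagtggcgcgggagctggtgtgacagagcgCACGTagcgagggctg
P4ha2, chr11:54100674-54100923, plus strand: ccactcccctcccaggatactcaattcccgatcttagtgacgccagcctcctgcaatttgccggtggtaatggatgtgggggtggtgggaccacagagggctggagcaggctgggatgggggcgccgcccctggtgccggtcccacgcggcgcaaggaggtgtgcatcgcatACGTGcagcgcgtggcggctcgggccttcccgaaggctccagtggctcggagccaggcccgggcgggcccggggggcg
Plod1, chr4:147936777-147937026, minus strand: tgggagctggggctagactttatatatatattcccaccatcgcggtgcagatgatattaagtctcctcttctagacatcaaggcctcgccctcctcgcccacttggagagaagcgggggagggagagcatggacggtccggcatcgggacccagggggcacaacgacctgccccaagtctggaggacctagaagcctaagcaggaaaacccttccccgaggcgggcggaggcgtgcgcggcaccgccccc
The letters ACGTG begin 16 bases before the start of P4ha1, on the other strand, and 78 bases before the RefSeq start of P4ha2. The window of Plod1 does not hold ACGTG but holds GCGTG. Of 32851 RefSeq promoter windows, 16.6% hold ACGTG. Of the 31 windows of the procollagen genes, which cover 26 genes, 11 do, in Adamts3, Mia2, Mia3, P3h1, P4ha1, P4ha2, P4hb, Plod3, Ppib, Sec24d and Serpinh1. Bmp1, Colgalt2, Creb3l1, Fkbp10, P3h2, P3h4 and Plod2 have no entry. A match of 5 letters is a description and not a binding site.

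The prolyl 3-hydroxylase genes encode P3h1, which with Crtap and the isomerase Ppib modifies a few prolines of fibrillar collagen, P3h2, known for basement membrane collagen, and P3h3 and P3h4, which in mouse skin act with Plod1 on lysines. Ppib stood at 896, 878, 897 and 900.2 TPM in W1 to W4, 852, 847, 960.2 and 951 TPM in M1 to M4, 883 and 845 TPM in W5 and W6, and 883, 873 and 881 TPM in M5 to M7. The genotypes overlapped in both sets, within a narrow range. Crtap measured 211, 204, 198 and 204 TPM in W1 to W4 and 203, 206, 204 and 201 TPM in M1 to M4, then 226 and 212 TPM in W5 and W6 and 233, 232 and 233 TPM in M5 to M7. Set 2 lay above set 1, and in set 2 the G234D cultures lay above both WT cultures. P3h1 stood at 158, 156, 150.1 and 139 TPM in W1 to W4, 158, 161, 146 and 148 TPM in M1 to M4, 139 and 139 TPM in W5 and W6, and 157, 148 and 157 TPM in M5 to M7. In set 2 the same held for P3h1, whose difference was 0.14 (SE 0.052, adjusted p = 0.743), beside 0.02 in set 1. Crtap transcripts were 1.28 to 1.47 times those of P3h1 in set 1 and 1.48 to 1.62 times in set 2. The TPM of P3h3 were 110.2, 106, 105 and 97.2 in W1 to W4, 105, 111, 121 and 109 in M1 to M4, 140.1 and 129.8 in W5 and W6, and 139, 137 and 141 in M5 to M7. In 7 of 7 G234D cultures P3h3 exceeded the WT average for the set in question, which 2.81% of all genes did too, and the difference for both sets was 0.08 (SE 0.04, adjusted p = 0.851).

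In set 1 P3h2 stood at 5.28, 5.01, 4.10 and 3.67 TPM in the WT cultures W1 to W4 and at 9.97, 8.76, 4.83 and 3.91 TPM in the G234D cultures M1 to M4. In set 2 P3h2 stood at 2.81 and 3.18 TPM in W5 and W6 and at 3.21, 2.52 and 4.64 TPM in M5 to M7. M1 and M2 were highest of the 13 cultures, and the other 6 cultures of set 1 lay between 3.67 and 5.28 TPM. P3h2 fell in the higher numbers, −0.64 (SE 0.13, adjusted p = 0.0300), with −0.33 in WT and −0.95 in G234D cultures. The interaction of the 2 was −0.62 (SE 0.18, adjusted p = 0.0979). The call was lost without W1 or any 1 of M1 to M4, with adjusted p from 0.0555 to 0.119, and without a filter on low values, at 0.0585. P3h4 ranged from 131 to 149.5 TPM.

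Lysyl hydroxylases prepare lysines for cross-links and, through Colgalt1 and the glucosyltransferase activity of Plod3, for sugars. Colgalt1 stood at 301, 286, 271 and 249 TPM in W1 to W4, 279.6, 275, 251 and 254 TPM in M1 to M4, 255 and 258 TPM in W5 and W6, and 258, 266 and 276 TPM in M5 to M7. The higher numbers all lay below the lower numbers. The difference was −0.15 (SE 0.041, adjusted p = 0.0548), not past the threshold. Plod3 measured 254, 252, 259 and 238 TPM in W1 to W4 and 256, 246, 247 and 231 TPM in M1 to M4, then 269 and 271 TPM in W5 and W6 and 272, 269 and 286 TPM in M5 to M7. Set 2 was higher than set 1, and the genotypes overlapped. Exons of Plod3 overlap those of Znhit1 on the other strand, which stood at 41.0 to 51.7 TPM. The TPM of Plod1 were 132, 115, 113 and 111 in W1 to W4, 113, 125, 145 and 114 in M1 to M4, 104 and 107 in W5 and W6, and 115, 97.0 and 128 in M5 to M7. Plod1, which acts on lysines of the helix, was highest in M3 in set 1 and in M7 in set 2. Plod2 stood at 70.2, 58.1, 42.3 and 50.2 TPM in W1 to W4, 84.1, 78.9, 59.2 and 35.0 TPM in M1 to M4, 45.8 and 47.3 TPM in W5 and W6, and 44.6, 48.4 and 57.6 TPM in M5 to M7. Plod2, which acts on lysines of the telopeptides, was highest in M1 and M2 and lowest in M4. Its share of the 3 lysyl hydroxylase transcripts ranged from 9.23% to 18.5%. Between higher and lower numbers Plod2 was at −0.64 (SE 0.17, adjusted p = 0.0640), and between genotypes over both sets at 0.14 (SE 0.19, adjusted p = 0.931).

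Among chaperones and isomerases, Fkbp14 had the smallest genotype p of the 30 genes over both sets and in set 1, but not in set 2, where its difference was 0.09 (SE 0.062, adjusted p = 0.821). It encodes FKBP22, an isomerase of the endoplasmic reticulum whose loss in human causes a kyphoscoliotic Ehlers-Danlos syndrome, and lies on the minus strand of chromosome 6 from 54577604 to 54597308 (mm10). In set 1 Fkbp14 stood at 48.7, 47.9, 46.6 and 45.0 TPM in the WT cultures W1 to W4 and at 58.8, 58.2, 55.7 and 51.8 TPM in the G234D cultures M1 to M4. In set 2 Fkbp14 stood at 46.6 and 47.4 TPM in W5 and W6 and at 50.8, 47.8 and 51.6 TPM in M5 to M7. Every G234D culture lay above every WT culture of its own set, by a wide step for M1 and M2 and a narrow one for M6. The group means were 47.0 ± 1.62 TPM (SD, n = 4) and 56.1 ± 3.18 TPM (SD, n = 4) in set 1, and 47.0 ± 0.595 TPM (SD, n = 2) and 50.1 ± 2.03 TPM (SD, n = 3) in set 2. The difference over both sets was 0.19 (SE 0.042, 95% interval 0.10 to 0.28), a 1.14-fold value, with an adjusted p of 0.670 that did not pass. It was 0.27 in the lower numbers, 0.23 in the higher numbers and 0.09 in set 2. Without M1 and M2 it was 0.14 (adjusted p = 0.505), and with the number groups as a block 0.19 (adjusted p = 0.231). Exons of Fkbp14 overlap those of Plekha8 on the other strand, which stood at 5.05 to 6.66 TPM with a genotype difference of 0.08. Whether the authors' counting used strand is not given in the sources used here.

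Serpinh1 stood at 4155, 4056, 3869.8 and 3666 TPM in W1 to W4, 3217, 3589, 3807 and 3863 TPM in M1 to M4, 3626 and 3556 TPM in W5 and W6, and 3613, 3595 and 3752 TPM in M5 to M7. M1 and M2 were low and W1 and W2 high, while set 2 held a narrow range. The genotype by number interaction of Serpinh1 was 0.30 (SE 0.084, adjusted p = 0.0904), not past the threshold. Sparc measured 6405, 6416, 6149.6 and 5626 TPM in W1 to W4 and 6447, 6747, 6743 and 6261 TPM in M1 to M4, then 6723 and 6416 TPM in W5 and W6 and 6540.0, 6436 and 6937 TPM in M5 to M7. The genotypes overlapped in both sets. The TPM of Fkbp10 were 567, 568, 521 and 522 in W1 to W4, 541, 566, 494 and 467 in M1 to M4, 490.1 and 471 in W5 and W6, and 490.1, 508 and 516 in M5 to M7. Fkbp10 encodes FKBP65, an isomerase that also bears on telopeptide lysine hydroxylation, and the higher numbers all lay below the lower ones. Its fall, −0.16 (SE 0.041, adjusted p = 0.0448), was small and was lost after quantile normalization (adjusted p = 0.0724), after median-of-ratios scaling (adjusted p = 0.0723) and without any one of the 8 cultures. Its exons overlap those of Nt5c3b on the other strand, at 29.2 to 34.6 TPM and a number difference of 0.06.

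Export genes code for the cargo receptors Mia3 (TANGO1) and Mia2, the coat proteins Sec23a and Sec24d, the ubiquitin ligase adaptor Klhl12, and Creb3l1 (OASIS), a transcription factor of the endoplasmic reticulum that drives collagen genes in mouse bone. Creb3l1 stood at 238, 222, 199 and 197 TPM in W1 to W4, 179.7, 205, 209.5 and 178 TPM in M1 to M4, 231 and 222 TPM in W5 and W6, and 213, 217 and 242 TPM in M5 to M7. M1 and M4 were lowest in set 1, and the difference there was −0.15 (SE 0.079, adjusted p = 0.858). Sec23a measured 204, 201, 194 and 181 TPM in W1 to W4 and 207, 211, 192 and 178 TPM in M1 to M4, then 140.4 and 136 TPM in W5 and W6 and 151, 156 and 158 TPM in M5 to M7. All 5 cultures of set 2 lay below set 1, and within set 2 the G234D cultures lay above the WT cultures. The TPM of Mia3 were 114, 109, 109.6 and 101 in W1 to W4, 104, 109, 114 and 104 in M1 to M4, 96.7 and 95.8 in W5 and W6, and 103, 108 and 111 in M5 to M7. In set 2 Mia3 showed the same order of genotypes. The differences in set 2 were 0.16 (SE 0.051, adjusted p = 0.741) for Sec23a and 0.15 (SE 0.055, adjusted p = 0.743) for Mia3. In set 1 they were 0.01 and −0.01, and the difference between sets was 0.17 (SE 0.076, adjusted p = 0.858) for Mia3. Of 6 export genes 5 had positive values over both sets and 0 were called. Mia2 ranged from 24.5 to 28.8 TPM, Klhl12 from 13.6 to 17.2 TPM and Sec24d from 133 to 185 TPM.

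The N-propeptide is removed by Adamts2, Adamts3 and Adamts14, and the first and last of these changed in opposite directions between the number groups. Adamts2, the main N-proteinase of skin, lies on the plus strand of chromosome 11 from 50602084 to 50807573 (mm10). In set 1 Adamts2 stood at 72.3, 72.7, 109 and 86.8 TPM in the WT cultures W1 to W4 and at 49.8, 53.9, 93.8 and 99.4 TPM in the G234D cultures M1 to M4. In set 2 Adamts2 stood at 112 and 113 TPM in W5 and W6 and at 113, 113 and 109 TPM in M5 to M7. M1 and M2 were lowest, W1 and W2 next, and the other 9 cultures were all higher. Adamts2 rose in the higher numbers, 0.65 (SE 0.11, adjusted p = 0.0218), with 0.42 in WT and 0.89 in G234D cultures. Adamts14 stood at 12.9, 10.3, 8.43 and 8.28 TPM in W1 to W4, 15.6, 15.7, 8.82 and 7.17 TPM in M1 to M4, 8.10 and 8.74 TPM in W5 and W6, and 11.0, 8.78 and 11.0 TPM in M5 to M7. M1 and M2 were highest and W1 next. Adamts14, on the minus strand of chromosome 10 from 61197112 to 61273438 (mm10), fell in the higher numbers, −0.66 (SE 0.12, adjusted p = 0.0217), with −0.43 in WT and −0.90 in G234D cultures. Without M1 the adjusted p was 0.0561 for Adamts2 and 0.0611 for Adamts14, and without M2 0.0893 for both. Without M3 it was 0.0507 for Adamts2. In WT cultures alone the adjusted p was 0.138 for Adamts2 and 0.115 for Adamts14. Adamts14 made up 23.6% and 22.4% of the transcripts of the 3 proteases in M1 and M2, and 6.70% to 14.9% in the other 11 cultures. In set 2 the genotype difference of Adamts14 was 0.25 (SE 0.12, adjusted p = 0.774).

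The C-propeptide is removed by the tolloid proteases Bmp1, Tll1 and Tll2, which Pcolce and Pcolce2 enhance. Pcolce stood at 867, 819, 797 and 782 TPM in W1 to W4, 801, 844, 884 and 804 TPM in M1 to M4, 887 and 841 TPM in W5 and W6, and 870.3, 846 and 988 TPM in M5 to M7. The genotypes overlapped in both sets. Bmp1 measured 339, 317, 302 and 267 TPM in W1 to W4 and 298, 319.9, 298 and 265 TPM in M1 to M4, then 331 and 331 TPM in W5 and W6 and 329, 345 and 359.7 TPM in M5 to M7. Bmp1 supplied 88.1% to 94.8% of tolloid transcripts. The TPM of Pcolce2 were 14.5, 16.3, 8.49 and 10.7 in W1 to W4, 15.7, 15.7, 5.26 and 8.10 in M1 to M4, 8.25 and 8.86 in W5 and W6, and 9.26, 7.76 and 7.74 in M5 to M7. The 4 lower numbers stood well above the 4 higher ones, and above set 2. Pcolce2, on the plus strand of chromosome 9 from 95637601 to 95698096 (mm10), fell in the higher numbers, −0.89 (SE 0.15, adjusted p = 0.0217), with −0.63 in WT and −1.14 in G234D cultures. In WT cultures alone the value was −0.63 (adjusted p = 0.0436). The call was lost without M1 (adjusted p = 0.0635) or M2 (adjusted p = 0.0893).

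Tll1 was the 1 gene of 30 whose genotype difference was called as unequal between the number groups. It lies on the minus strand of chromosome 8 from 64014931 to 64206271 (mm10). In set 1 Tll1 stood at 29.5, 34.4, 28.4 and 26.6 TPM in the WT cultures W1 to W4 and at 40.2, 37.7, 16.2 and 18.0 TPM in the G234D cultures M1 to M4. In set 2 Tll1 stood at 22.2 and 19.5 TPM in W5 and W6 and at 20.9, 24.1 and 21.7 TPM in M5 to M7. Among the lower numbers M1 and M2 stood above W1 and W2, and among the higher numbers M3 and M4 stood below W3 and W4. In set 2 the genotypes lay close together. The genotype difference was 0.28 in the lower numbers and −0.65 in the higher numbers. The interaction was −0.94 (SE 0.13, 95% interval −1.22 to −0.66, adjusted p = 0.00870), 1 of 30 procollagen genes against 2.81% of 11905 genes called and 1.87% called with a negative value. It was −0.89 (adjusted p = 0.0518) without M1. In the same test 6 of 6 Schwann cell and melanocyte markers were called and lower, and their part in the Tll1 value was not tested. Over both sets the genotype value of Tll1 was −0.08 (95% interval −0.51 to 0.35).

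**Figure D5:**
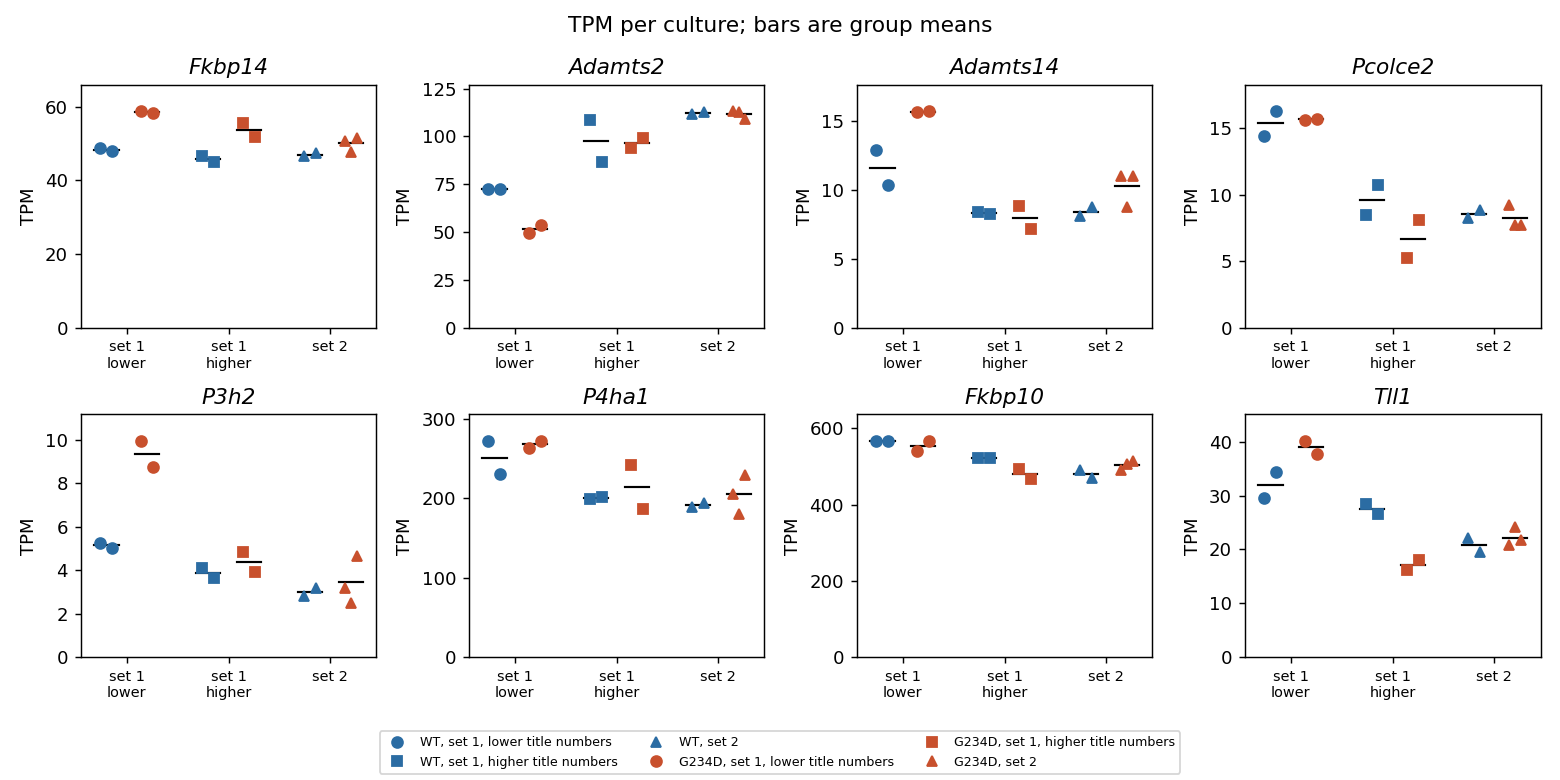
TPM per culture for 8 genes, by number group of set 1 and by set, WT in blue and G234D in orange, with bars at group means. Fkbp14 is higher in G234D cultures in each group, Adamts2 and Adamts14 differ between lower and higher numbers in opposite directions, and the genotypes swap order in Tll1.

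Neighbouring steps of the pathway gave 0 calls between genotypes over both sets and some between the title numbers. Over both sets limma called 0 of 10 fibrillar procollagen chains, 0 of 19 general folding genes of the endoplasmic reticulum, 0 of 18 COPII genes and 0 of 16 genes of cofactor supply and fibril steps between genotypes. At an unadjusted p under 0.05 there were 2, 3, 3 and 0 of them, against 6.44% of all genes. COPII genes had 16 positive and 2 negative values, with a median of 0.05, beside 56.6% positive and a median of 0.01 for all genes. Sar1a, the small GTPase that starts the coat, was at 0.08 (SE 0.027, adjusted p = 0.742). Between higher and lower numbers 3 of 19 general folding genes fell, against 4.35% of all genes, and 17 of 19 values were negative. The called genes were Hyou1, a large chaperone, at −0.15 (SE 0.034, adjusted p = 0.0348), Hsp90b1 (GRP94) at −0.22 (SE 0.056, adjusted p = 0.0443) and Canx (calnexin) at −0.18 (SE 0.046, adjusted p = 0.0466). Hsp90b1 measured 1506, 1393, 1290.2 and 1351 TPM in W1 to W4 and 1500.2, 1379.9, 1167 and 1146 TPM in M1 to M4, then 1161 and 1185 TPM in W5 and W6 and 1266, 1164 and 1263 TPM in M5 to M7. All 4 lower numbers exceeded all 4 higher ones. Dcn (decorin), which binds fibrils, rose at 0.65 (SE 0.093, adjusted p = 0.0137), and Loxl2, a lysyl oxidase that cross-links collagen, fell at −0.59 (SE 0.088, adjusted p = 0.0143). They were the 2 of 16 genes of cofactor supply and fibril steps called between the numbers, against 7.14% of all genes. Of 9 fibrillar chains 0 were called there. The interaction called Col3a1, the chain of type III collagen, at 0.95 (SE 0.15, adjusted p = 0.0242) and Fmod (fibromodulin) at 1.40 (SE 0.25, adjusted p = 0.0435). That was 1 of 9 fibrillar chains and 1 of 16 genes of cofactor supply and fibril steps, against 2.81% of all genes.

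The levels of set 2 can be set beside those of set 1 only as values, because no culture is in both sets. All 5 cultures of set 2 lay above all 8 of set 1 for P4ha3, P3h3, Crtap, Plod3 and Adamts2, 5 of 30 against 6.82% of all genes. They lay below for P4hb, Sec23a, Sec24d and Klhl12, 4 of 30 against 10.4%, and in either direction all genes gave 17.2%. Serpinh1 transcripts were 31.9% to 37.2% of those of Col1a1, the main chain of type I collagen, in set 1 and 25.5% to 28.5% in set 2.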

How the data were processed

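Total RNA of 13 cultures was extracted on columns and made into stranded libraries, per the labels' protocols, and mm10 is named in the submitters' processing notes. Aligner, annotation and counting tool are not given in the sources used. The authors deposited TPM, per the file headers, 1 table per culture with the same 25655 genes. Read totals are not used here, so depth is unknown and intervals for counting error are not given. The number of cultures limits the precision.

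From these, log2(TPM + 1) was modelled in limma 3.58.1 (R 4.3.3), using a variance trend on the mean level and the robust option. Genes entered at 1 TPM or more in at least 6 of all cultures, 4 of set 1 or 2 of set 2. The scale understates differences of low genes. Adjusted p is Benjamini-Hochberg over every gene entered. Genotype was compared across both sets, adjusting for set, then in each set and between sets. Set 1 was also compared by title number, adjusting for genotype, and for the interaction of the 2. The genes, the lists and the number groups were chosen with earlier results of these data known. Values per culture are given for called genes, the 4 smallest p of each comparison and the 2 highest genes of each role, and up to 3 genes of each neighbouring list are named. Deviations of same-numbered WT and G234D cultures correlated at 0.314, 0.236, 0.244 and 0.214 in set 1 and at −0.155 and 0.0138 in set 2. Only set 1 passed the limit of 0.1. Its same-numbered cultures also share a title number group, so pairing cannot be told apart from that division. The labels name no litter or day. The models were tested on simulated data. Promoters came from RefSeq on GRCm38.p6 and gene positions from GENCODE M21 on mm10. Alternatives were no filter or 10 TPM, a pseudocount of 0.1, no robust step, quantile normalization, median-of-ratios scaling, blocks, and leaving out cultures.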

Additional observations from a re-analysis of the deposited data

Results flagged for a closer look

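P4ha2, an alpha subunit of prolyl 4-hydroxylase, stood at 144 TPM in M4, which lay apart from the other G234D cultures of set 1, at 181 to 187 TPM. Its gap to the next culture made up 0.866 of the range of the 4 cultures, more than the 95% critical value of Dixon allows. This was 1 of 60 groups checked, and chance gives about 1 in 20.

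The genotype difference of Tll1, a tolloid protease, was not the same in the cultures of set 1 with lower and higher title numbers. The interaction of −0.94 on the log2 scale was tested by limma and passed at an adjusted p of 0.00870. M1 and M2 lay above the WT cultures of the lower numbers, and M3 and M4 below those of the higher numbers.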

How the results depend on the processing

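In the 3 genotype comparisons and the test between sets, 0 of the procollagen genes tested were called under every alternative run, the replicate block included (0 called in each of the 3). Between higher and lower numbers the count of 6 became 3 without a filter, 1 in WT cultures only, 3 without W1, and 0 to 5 when 1 culture was left out (0 without M1 and 0 without M2, 3 without M3). It was 4 to 8 with the filter at 10 TPM, the pseudocount of 0.1, no robust step and both other scalings. The interaction called 1 gene, and 0 to 2 when 1 culture was left out (0 without M1, 2 without M3, M4 or W3). Over all genes, the 850 calls between numbers became 269 without a filter, 190 in WT cultures only, 276 without W1 and 36 to 855 with 1 culture left out. The 334 interaction calls became 139 without a filter, 78 without W1, which was an alternative chosen after seeing the data, and 46 to 690. For genotype, 1 gene was called in set 1 with either block (main 0), and in set 2 the 1 call became 0 without a filter or at 10 TPM and 21 with the replicate block, where the numbers do not pair. Leaving out 1 culture gave 0 to 2 genes in set 1 and 0 to 14 in set 2, and the test between sets called 1 gene with the number groups as a block. P3h2 was below the filter at 10 TPM and has no value there. The same held for Pcolce2 in the comparisons over both sets and in set 2, but not within set 1. The cause of these changes was not tested. Depth is not given, and genes near 1 TPM are the least precise.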
